A study of Mus musculus with 16 samples.

Results

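This account covers the RNA of AML12 cells in which an shRNA targeted eIF6, split into the part that sedimented with polysomes and the part that did not. AML12 is an established line of mouse hepatocytes. Doxycycline switched the shRNA on, and the cells were then given insulin for 1 h. The sample descriptions state the insulin as 100 nM, while the treatment text writes mM. The members were the arrays titled shrna+doxy+ins poly and shrna+doxy+ins sub, 4 polysomal and 4 subpolysomal, which made 8 of the 16 arrays of the series. The other 8 arrays held the same fractions of cells with a scramble shRNA, also given doxycycline and insulin, and served here for comparison. All groups therefore shared doxycycline, insulin and the infection with a vector. The model was 1 cell line with shRNA against eIF6, and protein was not measured in these data. The sample titles do not say which shRNA sequence against eIF6 was used, or whether there was more than 1. The study's methods describe the 4 arrays of a group as biological replicates, and the p-values below measure the spread between those arrays.

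A polysome is an mRNA that carries several ribosomes at once, and its weight takes it far down a sucrose gradient. The lighter subpolysomal part holds free RNA and RNA in small particles, with single ribosomal subunits and single ribosomes. An mRNA that is translated often lies mostly in polysomes, while nuclear and structural RNAs, RNAs inside mitochondria and mRNAs that are held back lie in the light part. eIF6 binds the large ribosomal subunit, keeps it from joining the small one too early and is needed to make large subunits, and in liver it takes part in the rise of translation after insulin. Messages that start with a 5′ terminal oligopyrimidine (TOP) tract, such as those of ribosomal proteins, are known to move between both parts of the gradient with nutrient and insulin signals.

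For each gene, the polysomal ratio is the mean log2 signal of the 4 polysomal arrays minus that of the 4 subpolysomal arrays. A ratio above 0 means more signal on polysomes and below 0 more in subpolysomes. The arrays were quantile normalized, which gives all of them the same distribution of signal. The ratio therefore places a gene against the other genes of the same arrays, and the total RNA of either part was not measured. More messages on polysomes and more ribosomes on each message cannot be told apart either, since the polysomal part was 1 pool. A gene was called when its adjusted p (limma, Benjamini-Hochberg over all genes) was under 0.05.

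Of 19364 genes tested, 6225 (32.1%) were called higher on polysomes and 5553 (28.7%) higher in subpolysomes, so that 60.8% were called. The polysomal and subpolysomal arrays did not overlap for 10837 genes (56%). The extremes were not alike on both sides. At 4-fold or more, 121 genes were called on polysomes and 560 in subpolysomes, and at 2-fold or more 1989 and 2365. The median ratio of all genes was 0.03, with 5th and 95th percentiles of -1.64 and 1.31. Arrays of 1 fraction correlated at 0.989 to 0.995 and arrays of different fractions at 0.957 to 0.969 over genes. With the slide as a block, 6438 and 5756 genes were called. The split of calls depended on the scaling. Higher genes made up 52.9% of calls after quantile normalization, 30.9% when each array was scaled to its 75th percentile (median ratio of all genes -0.37) and 95.8% when it was scaled to spike-in probes (median 1.30). The lists and named genes that changed direction relative to all genes under these scalings are given with their values.

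The labels were checked against genes that should mark them. Eif6, the target of the shRNA, was measured by 3 probes on chromosome 2 (minus strand, mm9, chr2:155645718-155645777 to chr2:155650902-155650961). On polysomes its log2 signal was 11.92, 11.999, 11.85 and 11.81 in eIF6 shRNA cells and 12.96, 12.94, 12.96 and 12.94 in scramble cells, without overlap. In subpolysomes it was 11.73, 11.49, 11.74 and 11.497 and 11.53, 11.55, 11.65 and 11.66, where the groups overlapped. Of 14 hepatocyte markers on the array, 10 were well above background on all 8 arrays, among them Ttr, Apoe, Serpina1a, Hnf4a and Krt18, and Fgb, a fibrinogen chain, was above it on none. Of 8 fibroblast and stellate cell markers, 6 were also well above background on all 8 arrays, Col1a1, Col1a2, Col3a1, Pdgfrb, Vim and Acta2. The numbers were 2 of 4 for endothelial markers (Cdh5 and Tek on no array), 3 of 5 for leukocyte markers and 3 of 4 for biliary markers. Of the tested protein-coding genes, 10789 of 14508 were well above background on all 8 arrays. The tested genes had already passed a filter on dim probes. The marker counts cover all members on the array, so the shares are not directly comparable. Whether the hepatocyte markers stood apart from other genes was not tested. Markers of fibroblasts were measured in the same RNA.

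The lowest ratios among the named genes were those of structural and nuclear RNAs. Rmrp, the RNA of the RNase MRP particle that processes ribosomal RNA in the nucleolus, had the lowest ratio of all genes. Its probe lies at chr4:43505847-43505906 of mm9, and its log2 signal was 5.99, 5.63, 6.46 and 5.41 on polysomal arrays 1 to 4 and 13.01, 13.003, 12.61 and 13.72 on subpolysomal arrays 1 to 4. The groups lay far apart, and the ratio of -7.21 (SE 0.297, adjusted p = 1.05e-10) meant 148-fold more signal in subpolysomes. Rnu3b1, a U3 RNA that guides the cleavage of ribosomal RNA precursors, gave 6.57, 6.31, 6.91 and 6.22 on polysomes and 12.74, 12.695, 12.33 and 12.81 in subpolysomes, a ratio of -6.14. Rnu2-10 and Rnu1b6, the U2 and U1 RNAs of the spliceosome, had ratios of -5.47 and -5.03. Snora74a, a guide for the modification of ribosomal RNA, had a ratio of -4.65. In none of these did a polysomal array reach the lowest subpolysomal one, which the rule that selected them required.

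Long noncoding RNAs followed. Malat1, which lies in nuclear speckles, gave 7.14, 6.795, 7.096 and 6.93 on polysomes and 11.82, 11.75, 11.79 and 11.83 in subpolysomes. The subpolysomal arrays were almost equal, and the ratio was -4.81 (SE 0.11, adjusted p = 2.64e-13). Neat1, the scaffold of paraspeckles, gave 16.53, 16.48, 16.46 and 16.59 in subpolysomes against 12.67, 12.503, 12.72 and 12.36 on polysomes, a ratio of -3.95. Dancr and Mir17hg, the host transcript of a microRNA cluster, had ratios of -4.23 and -3.88. Snhg7 and Gas5, both hosts of small nucleolar RNAs, had -3.91 and -3.77, and the 3 Gas5 probes lay between -4.04 and -3.46. None of them overlapped between the parts, again by the rule of selection.

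**Figure D1:**
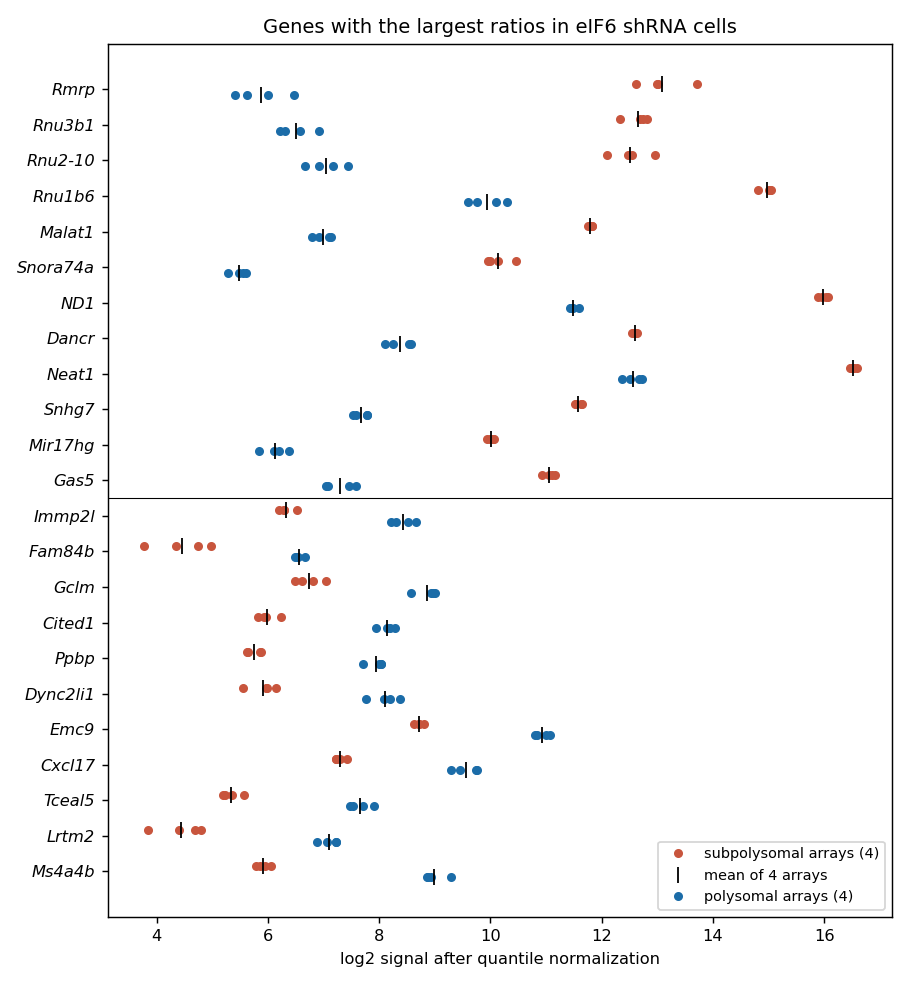
Log2 signal after quantile normalization (horizontal axis) of the 12 genes with the lowest and 11 of the 12 with the highest polysomal ratio in eIF6 shRNA cells among named genes well above background on all 8 arrays, 1 point per array and a bar at the mean of 4. Polysomal (blue) and subpolysomal (red) arrays do not overlap for any of them, because only genes without overlap were ranked. The gap between the means runs from 7.21 for Rmrp to 2.10 for Immp2l.

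The classes of RNA in the RefSeq table, matched for 15431 genes by transcript or else by symbol, differed in the same direction. Against 32.1% of all genes called on polysomes and 28.7% in subpolysomes, the shares were 36.4% and 24.1% for 14508 protein-coding genes, with a median ratio of 0.13. Of 658 long noncoding RNAs, 13.1% were higher on polysomes and 42.2% in subpolysomes, with a median of -0.36. Among the 329 of these that were well above background on all 8 arrays the median was -0.50 and 55.3% were higher in subpolysomes. All 4 small nuclear RNAs and both small nucleolar RNAs were called in subpolysomes, with Rnu12, of the minor spliceosome, the least low of the small nuclear RNAs at -2.103. So was Rn4.5s, a small RNA listed under ribosomal RNA, at -2.63 (both named after their values were seen). The medians of 91 pseudogenes (-0.21) and 130 transcribed pseudogenes (-0.15) lay between those of the coding and the long noncoding genes. Their shares called in subpolysomes were 45.1% and 41.5%, close to that of long noncoding RNAs. On polysomes 25.3% and 28.5% of them were called, against 13.1% of long noncoding RNAs. Probes annotated by the array's design only to a cDNA or EST clone, 1155 genes, had a median of -0.47. By chromosome, the medians of the autosomes and chromosome X ran from -0.01 (chromosome 7) to 0.26 (chromosome X), and the mitochondrial genome stood at -2.16.

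**Figure D2:**
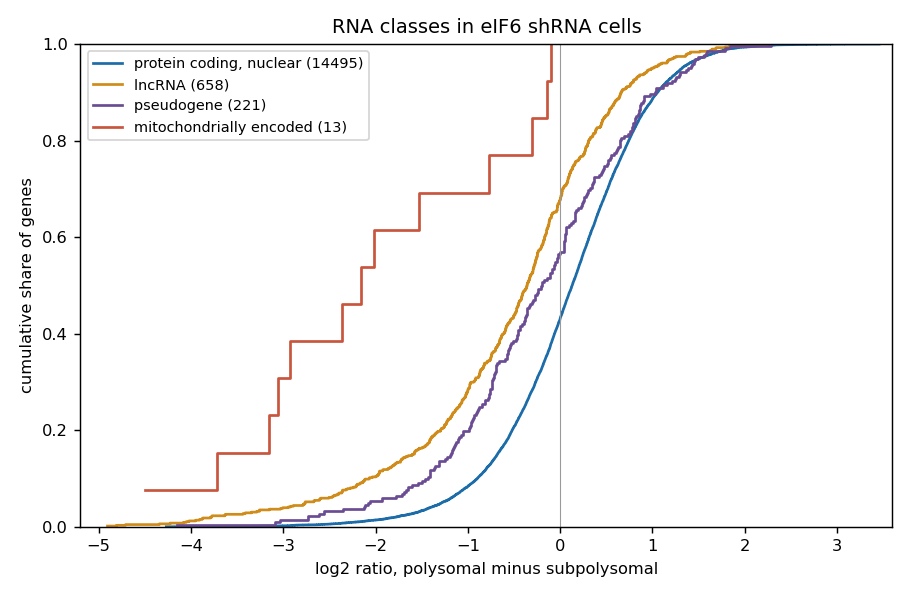
Cumulative share of genes (vertical axis) against the polysomal ratio on the log2 scale (horizontal axis) in eIF6 shRNA cells for protein-coding genes of the nucleus, long noncoding RNAs, pseudogenes and the 13 mitochondrially encoded genes. The curve of long noncoding RNAs (median -0.36) lies to the left of that of coding genes, and the mitochondrial curve (median -2.16) lies furthest left.

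A list of well-known long noncoding and functional RNAs, of which 27 were tested, had a median ratio of -2.04. Of these, 22 were called in subpolysomes (81.5%, against 28.7% of all genes) and 1 on polysomes (3.70%, against 32.1%). Tug1, a transcript first found in retinal development, was the exception, with 9.34, 9.44, 9.38 and 9.22 on polysomes, 8.601, 8.45, 8.56 and 8.65 in subpolysomes and a ratio of 0.78 (adjusted p = 2.37e-05). Its 3 probes lay between 0.75 and 0.83, and the arrays did not overlap. Peg13, an imprinted transcript of the brain, had a ratio of 0.22 (adjusted p = 0.0931) and was not called. The hosts of small nucleolar RNAs spread widely, from -3.91 for Snhg7 over -3.29 for Snhg6, -2.92 for Snhg12, -2.36 for Snhg1 and -2.04 for Snhg10 to -0.98 for Snhg5, all called. Snhg9 at -0.44 was not called. Ftx and Jpx, noncoding genes of the X inactivation centre, were called at -0.53 and -0.88.

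Host genes of this kind often start with a TOP tract. The start motif searched was a C followed by at least 4 pyrimidines (C or T) at the first base of the RefSeq transcript on the sense strand, and it was found at 2.51% of 32851 start sites of the RefSeq table (GRCm38.p6). It was present in 2 of 8 tested hosts of the Gas5 and Snhg kind and in 14 of 57 ribosomal protein genes with a start site in the table (24.6%). The sequences are shown for the hosts and for ribosomal protein genes from both ends of the range. Capitals mark the tract from the first base of the transcript, and the 10 bases before it lie upstream.
Snhg7, chr2:26640225-26640254, minus strand: gatgctcggcCTCTCggcagccatggcggc
Gas5, chr1:161035156-161035185, plus strand: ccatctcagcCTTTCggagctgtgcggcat
Rps15a, chr7:118116128-118116157, minus strand: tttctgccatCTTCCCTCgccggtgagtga
Rps6, chr4:86857348-86857377, minus strand: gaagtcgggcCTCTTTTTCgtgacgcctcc
Rpl38, chr11:114668570-114668599, plus strand: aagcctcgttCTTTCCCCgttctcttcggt
Rpl35, chr2:39005112-39005141, minus strand: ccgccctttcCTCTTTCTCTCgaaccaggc
The ratios of these genes were -3.91, -3.77, -1.43, -0.74, 0.32 and 0.25 in the same order, so that tracts of similar letters were found from the lowest to the upper part of the range. Over all 11613 coding genes with a start site, the 348 with the motif had a median ratio of 0.0085 and the others 0.13. Among ribosomal protein genes the medians were -0.25 with and -0.32 without it, and the motif was found in 4 of 16 other genes known for TOP tracts. The search read only annotated starts, which can differ from the start used in these cells, so that a gene without the motif here may still carry a tract.

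The 13 protein-coding genes of the mitochondrial genome, whose mRNAs are read by ribosomes inside the organelle, had a median ratio of -2.16. In subpolysomes 11 were called (84.6%, against 28.7% of all genes). ND1, a subunit of complex I (probe at position 2898 to 2957 of the mitochondrial genome), gave 11.48, 11.59, 11.45 and 11.42 on polysomes and 16.03, 15.96, 16.07 and 15.89 in subpolysomes. The arrays of either part lay close together, and the ratio was -4.5 (SE 0.13, adjusted p = 4.28e-12). ATP8, of the ATP synthase, gave 13.11, 13.04, 13.19 and 12.43 and 16.66, 16.78, 16.68 and 16.53, a ratio of -3.72. These genes did not behave alike. ND3, ND4L and ATP6 had ratios of -3.16, -3.06 and -2.93, while CYTB had -0.77 and COX1 -0.301. COX2, a catalytic subunit of cytochrome oxidase, was close to even with 17.58, 17.48, 17.51 and 17.62 on polysomes and 17.704, 17.77, 17.7 and 17.56 in subpolysomes (-0.14, adjusted p = 0.105). ND6, the only one read from the light strand, was not called either (-0.095, adjusted p = 0.811), and its ratio turned to 0.05 relative to all genes under scaling by 1 constant per array. The files place 6 of the 13 probes (ATP6, ATP8, COX2, COX3, ND3 and ND4L) on chromosome 1 of mm9, between positions 24619243 and 24621798, in nuclear sequence that copies the mitochondrial genome. The part of this copy in the signal was not tested.

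Nuclear genes for the same respiratory chain lay at the other end. Of 78 tested members of oxidative phosphorylation, 56 were called on polysomes (71.8%, against 32.1% of all genes) and 8 in subpolysomes (10.3%, against 28.7%). Their median was 0.76, against 0.03 for all genes. Ndufc2, a subunit of complex I, gave 14.47, 14.43, 14.34 and 14.27 on polysomes and 12.69, 12.71, 12.79 and 12.78 in subpolysomes, a ratio of 1.64 (adjusted p = 6.07e-10). Cox7b, of cytochrome oxidase, gave 17.01, 17.18, 17.26 and 17.03 and 15.37, 15.51, 15.47 and 15.64, a ratio of 1.63. In both, every polysomal array stood well above every subpolysomal one. Atp5g3, of the ATP synthase, and Cox5a, of cytochrome oxidase, followed at 1.61 and 1.59. Of the 8 called in subpolysomes, the lowest were Uqcr10, of complex III, with 14.66, 14.41, 14.85 and 14.06 against 15.78, 15.85, 15.81 and 15.94 and a ratio of -1.35, and Cox7a2l, which helps join complexes III and IV, at -1.21. The 3 probes of each agreed in sign, between -1.73 and -1.07 for Uqcr10 and between -1.67 and -0.78 for Cox7a2l. The proteins that build mitochondrial ribosomes were on polysomes as well, with 45 of 75 called there (60%) and 11 in subpolysomes (14.7%). Their median was 0.36. Mrpl14 had the highest ratio at 1.41 and Mrpl42 the lowest at -1.67. Of 35 enzymes of the citric acid cycle and fatty acid oxidation, 13 were called on polysomes (37.1%, near the 32.1% of all genes). In subpolysomes 2 were called (5.71%, against 28.7% of all genes). Their median was 0.30, or 0.16 without the fourth polysomal array, with Etfa, an electron carrier, at 1.34 and Mdh2, malate dehydrogenase, at 1.304.

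The leading genes on polysomes had smaller ratios than the leading RNAs of the light part. They were ranked among named genes whose probes were well above background on all 8 arrays, had 1 sign and did not overlap between the parts, which held for 6032 genes. Ms4a4b, a membrane protein known from T cells, gave 8.87, 8.92, 8.89 and 9.296 on polysomes and 5.79, 5.86, 6.06 and 5.96 in subpolysomes, a ratio of 3.07 (SE 0.51, adjusted p = 9.95e-05), and its 2 probes gave 2.96 and 3.18. The SE is pooled over the 4 groups and is wider than the spread of these 8 arrays. Lrtm2, a neuronal membrane protein, gave 7.22, 7.06, 6.89 and 7.22 and 4.402, 3.85, 4.79 and 4.69, a ratio of 2.66. These levels were low, and the subpolysomal arrays of Lrtm2 spread widely. Emc9, of the complex that inserts membrane proteins into the endoplasmic reticulum, gave 11.07, 11, 10.84 and 10.79 and 8.63, 8.81, 8.71 and 8.71, a ratio of 2.21. The arrays of a part lay close together. Further leading genes were Tceal5 (2.32), Cxcl17, a secreted chemokine (2.26), Dync2li1, a light chain of ciliary dynein (2.196), the platelet chemokine Ppbp (2.19), the transcriptional coregulator Cited1 (2.15), Gclm, a subunit of the enzyme for glutathione synthesis (2.13), Fam84b, now Lratd2 (2.102), and Immp2l, a peptidase of the inner mitochondrial membrane (2.099).

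Some genes were well above background in only 1 of both parts, so that a bound is given. The bound sets the mean of the brighter part against, per array, the lowest signal that counted as well above background or the measured value if higher. There were 158 genes with such a bound on polysomes and 13 in subpolysomes. On polysomes, Spp2, a secreted phosphoprotein of liver, was at least 5.51-fold higher, Crisp1, a secreted protein of the epididymis, at least 5.38-fold and Apln, the peptide hormone apelin, at least 4.27-fold (adjusted p = 4.31e-06, 0.000419 and 1.13e-09). In subpolysomes, Lcat, the plasma enzyme that esterifies cholesterol, was at least 7.81-fold higher, Ugt2b37, a glucuronosyltransferase, at least 7.67-fold and Fermt3, a partner of integrins in blood cells, at least 6.54-fold (adjusted p = 9.54e-08, 9.97e-09 and 4.56e-09). On the dim side all 4 arrays were not well above background in each of these genes. All but Apln passed the filter on dim probes only through polysomal or only through subpolysomal arrays, those of the brighter part, so that these p-values support nothing beyond the bounds.

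Among protein-coding genes well above background on all 8 arrays, some of the lowest ratios went with a feature of the probe. The genes Mfsd2b, Gla and Lrrc31 (named after their values were seen) had ratios of -3.598, -3.55 and -3.003. Gla encodes the lysosomal alpha-galactosidase, Mfsd2b a lipid transporter and Lrrc31 a leucine-rich repeat protein. Their mean subpolysomal log2 signals were 15.36, 15.15 and 16.41. Zfp408 and Zfp658, the lowest of the zinc finger genes, had ratios of -2.36 and -2.36. Each of these genes had 1 kept probe, and each probe held a stretch of the B2 element, a short repeat found at many places of the mouse genome. The words searched were CTCTTCTGG, TCTGGTGTG and TGTCTGAAG, on the strand of the probe only, and the first can overlap the second in the element. The probes are printed in part, 30 of 60 bases with the words in capitals and with the place of the whole probe in mm9.
Mfsd2b, chr12:4869246-4869305, minus strand: cCTCTTCTGGTGTGcctgaagacagctaga
Gla, chrX:131122895-131122954, minus strand: atgccCTCTTCTGGttctctagacagcaac
Lrrc31, chr3:30581602-30581661, minus strand: acgccCTCTTCTGGttctTGTCTGAAGaca
Zfp408, chr2:91483850-91483909, minus strand: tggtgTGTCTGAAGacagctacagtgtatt
Zfp658, chr7:50830763-50830822, plus strand: tctTCTGGTGTGtctgaaagcagcgacagt
Pde4c, chr8:73275002-73275061, plus strand: ttttgTGTCTGAAGaaagcaatggttactc
Pde4c, a phosphodiesterase that degrades cAMP, is shown because it also had 1 of the largest differences from scramble cells. Over all kept probes, 66 (0.261%) held at least 1 of the 3 words, and their median ratio was -1.30, with 44 called in subpolysomes (66.7%) and 10 on polysomes (15.2%). For all 25259 kept probes the median was 0.07, with 27.3% called in subpolysomes and 33.6% on polysomes. The word was no guarantee, since Sesn2, a stress sensor, held TGTCTGAAG and had a ratio of -0.57, and the probe of Hk1 with it had 0.13. Whether the signal of such a probe came from the named gene or from other transcripts that carry the repeat was not tested.

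Simple repeats in the probe also went with the ratio, and in opposite directions for the 2 strands of 1 repeat. The 80 probes with CACACACAC (0.317% of all) had a median ratio of -0.65 (44 called in subpolysomes and 6 on polysomes), and the 168 probes with TGTGTGTGT (0.665%), from the other strand of the repeat, had a median of 0.44 (22 and 110). The 49 probes with AGAGAGAGA (0.194%) had a median of -0.65 and the 125 with GAAGAAGAA (0.495%) one of -0.92. The examples show the probe of Fgf23, a hormone of phosphate balance that ranked among the lowest coding genes, of Snap25, a protein of synaptic vesicle fusion, of Cabp5, a calcium-binding protein of the retina, and of Hs2st1 and Extl2, both enzymes of heparan sulfate.
Fgf23, chr6:127030758-127030817, plus strand: cCACACACACACACACACACatacatgtaa
Snap25, chr2:136607709-136607768, plus strand: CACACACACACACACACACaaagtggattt
Cabp5, chr7:13993821-13993880, plus strand: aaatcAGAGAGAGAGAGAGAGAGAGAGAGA
Hs2st1, chr3:144094574-144094633, minus strand: gtcaaTGTGTGTGTGTGTctatgtttattt
Extl2, chr3:115731714-115731773, plus strand: atgtaTGTGTGTGTcttaatgcaatcagaa
The ratios of these probes were -3.07, -2.85 and -2.92 for the first 3 and 1.204 and 1.14 for the last. The GC content of the probe went with the ratio as well, from a median of 0.39 for the 285 probes with up to 30% GC to -0.62 for the 237 probes above 55% (Spearman's rho -0.13 over 25259 probes, as a description). Between these ends the medians fell from 0.21 to -0.07. In scramble cells the medians of the same probes were 0.094 and -0.51 at the ends and 0.033 to 0.086 between them. The difference between the cells in this trend was not tested. The probe words were chosen after the values were seen, and no test was made on them. Without the probes that hold a word, 6146 genes were called on polysomes and 5393 in subpolysomes. Other coding genes with low ratios and none of these words (also named after their values were seen) were Gdpd3, a lysophospholipase, at -3.59, the phosphodiesterase Pde5a at -3.52 and Dlx3, a homeobox factor, at -3.501.

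The messages of the translation machinery did not lie together. Of 78 cytosolic ribosomal protein mRNAs, 41 were called in subpolysomes (52.6%, against 28.7% of all genes), 14 on polysomes (17.9%, against 32.1%) and 23 in neither, with a median ratio of -0.27 against 0.03 for all genes. Within single slides, each with 1 array of every group, the median ran from -0.37 to -0.20. Rpsa, of the small subunit, gave 14.56, 14.34, 14.45 and 14.39 on polysomes and 16.02, 15.95, 15.93 and 15.87 in subpolysomes, a ratio of -1.51 (adjusted p = 3.51e-10), and its 4 probes lay between -2.47 and -0.48. Rps2 gave 16.37, 16.34, 16.31 and 16.17 and 17.72, 17.77, 17.75 and 17.78, a ratio of -1.46 (adjusted p = 2.42e-10). The parts were well separated in either gene. Towards the other end stood Rpl27, with 16.98, 16.98, 16.95 and 16.96 against 16.51, 16.49, 16.45 and 16.52 and a ratio of 0.48, which turned to -0.37 relative to all genes when arrays were scaled by 1 constant. On that scale the median of the list was -1.21 relative to all genes, against -0.30 after quantile normalization, so the direction held and the size did not. With only the brightest probe of each gene, the median was -0.036, close to that of all genes.

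Of 22 other messages known to carry TOP tracts, 13 were called in subpolysomes (59.1%, against 28.7% of all genes) and 4 on polysomes (18.2%, against 32.1%). Their median was -0.54. Within single slides this median ran from -0.72 to -0.21, and under constant scaling it was -0.72 relative to all genes. The difference from the ribosomal protein messages was not tested. Eif4b, which helps unwind mRNA for the ribosome, gave 10.61, 10.599, 10.79 and 10.75 on polysomes and 12.58, 12.61, 12.53 and 12.47 in subpolysomes, a ratio of -1.86 (adjusted p = 8.99e-09). Eif3f, of the factor that holds the small subunit, had -1.48, Pabpc1, the poly(A)-binding protein, -1.45, and the elongation factors Eef1a1 and Eef2 -1.33 and -0.56. Eef1d, of the exchange factor for Eef1a1, was on polysomes with 16.53, 16.499, 16.46 and 16.72 against 15.73, 15.695, 15.79 and 15.72 and a ratio of 0.82. Ppia, a prolyl isomerase, was there at 0.94 but turned to -0.35 relative to all genes under constant scaling. Of 46 translation factors outside this list, 20 were called on polysomes (43.5%, against 32.1% of all genes) and 8 in subpolysomes (17.4%, against 28.7%). Their median was 0.15, or 0.024 without the fourth polysomal array and 0.072 with normexp, another background correction. Eif1ax, which takes part in scanning for the start codon, had 14.35, 14.23, 14.26 and 14.07 against 12.898, 12.93, 13.03 and 12.97 and a ratio of 1.27, and Eif5a, needed for difficult peptide bonds, had 1.25. Pabpc4, a relative of Pabpc1, was the lowest, with 11.77, 12.17, 11.83 and 12.32 against 14.12, 13.89, 13.98 and 14.26 and a ratio of -2.04, and Eif4a2, an RNA helicase, had -1.42.

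Among 50 ribosome biogenesis factors, 19 were called in subpolysomes (38%, against 28.7% of all genes) and 11 on polysomes (22%, against 32.1%). Their median was -0.14. Polr1c, of RNA polymerases I and III, was at -1.21, Nop56, of the particles that modify ribosomal RNA, at -1.19 and Nop16 at 0.95. Of 20 aminoacyl-tRNA synthetases, 5 were called on polysomes (25%, against 32.1% of all genes) and 3 in subpolysomes (15%, against 28.7%). Their median was -0.26, with Qars, for glutamine, at -1.41 and Gars, for glycine, at 0.93. Within single slides the median ran from -0.55 to 0.36 for the synthetases and from -0.39 to 0.08 for the biogenesis factors. Neither direction was thus the same on every slide. Relative to all genes, the medians of both lists turned to 0.10 and 0.04 under constant scaling.

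**Figure D3:**
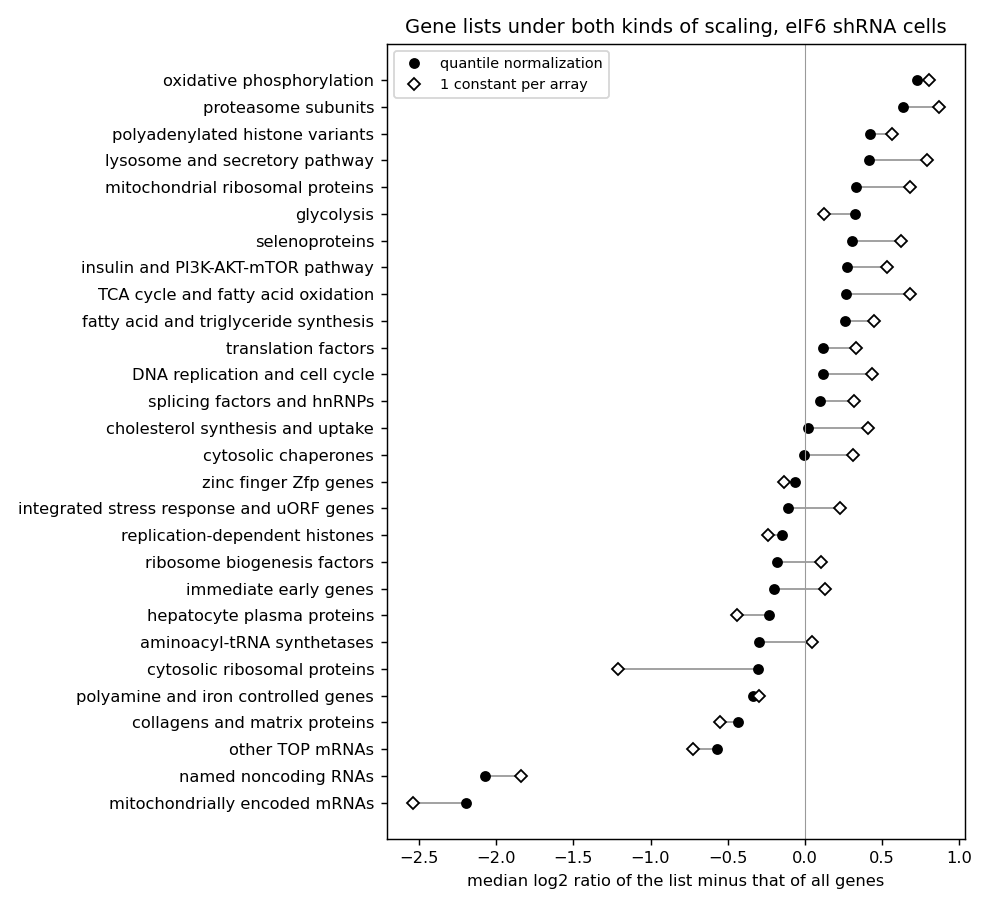
Median polysomal ratio of each gene list minus the median of all genes on the log2 scale (horizontal axis) in eIF6 shRNA cells, after quantile normalization (filled) and after scaling each array by 1 constant (open). Cytosolic ribosomal proteins move from -0.30 to -1.21, while oxidative phosphorylation moves from 0.73 to 0.80 and mitochondrially encoded mRNAs from -2.19 to -2.54.

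Messages for protein turnover and the secretory route lay on polysomes. Of 37 proteasome subunits, 28 were called on polysomes (75.7%, against 32.1% of all genes) and 1 in subpolysomes (2.70%, against 28.7%). Their median was 0.67. Psmb2, of the core particle, gave 10.24, 10.23, 9.9 and 10.31 on polysomes and 8.92, 8.63, 8.83 and 8.74 in subpolysomes, a ratio of 1.39. Psmb9, a subunit of the immunoproteasome, gave 8.29, 8.32, 7.94 and 7.93 and 6.98, 6.22, 6.02 and 6.46, a ratio of 1.699 (adjusted p = 8.95e-07). The groups did not overlap in either. Psmb1 was the 1 subunit called in subpolysomes, at -0.21 (adjusted p = 0.0301), and it turned to 0.15 relative to all genes under constant scaling. Of 42 lysosomal and secretory pathway genes, 23 were called on polysomes (54.8%) and 1 in subpolysomes (2.38%), with a median of 0.45. Scarb2, a membrane protein of lysosomes, had 1.48, and Cd63, another, had 16.93, 16.63, 16.66 and 17.03 against 15.43, 15.32, 15.35 and 15.26 and a ratio of 1.47. The cathepsins Ctsb, Ctsd, Ctsl and Ctsz had ratios of 1.101, 0.83, 0.84 and 1.03. Spcs2, of the signal peptidase, was called in subpolysomes at -0.52, but its 2 probes differed in sign (-1.75 and 0.71). Of 31 cytosolic chaperones, 9 were called on polysomes and 3 in subpolysomes (median 0.03). The small heat shock proteins Hspb8 and Hspb1 were at 1.2 and 0.87, and Hspa8, the constitutive Hsp70, at -0.59. The median turned below 0 without the fourth polysomal array of eIF6 shRNA cells.

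**Figure D4:**
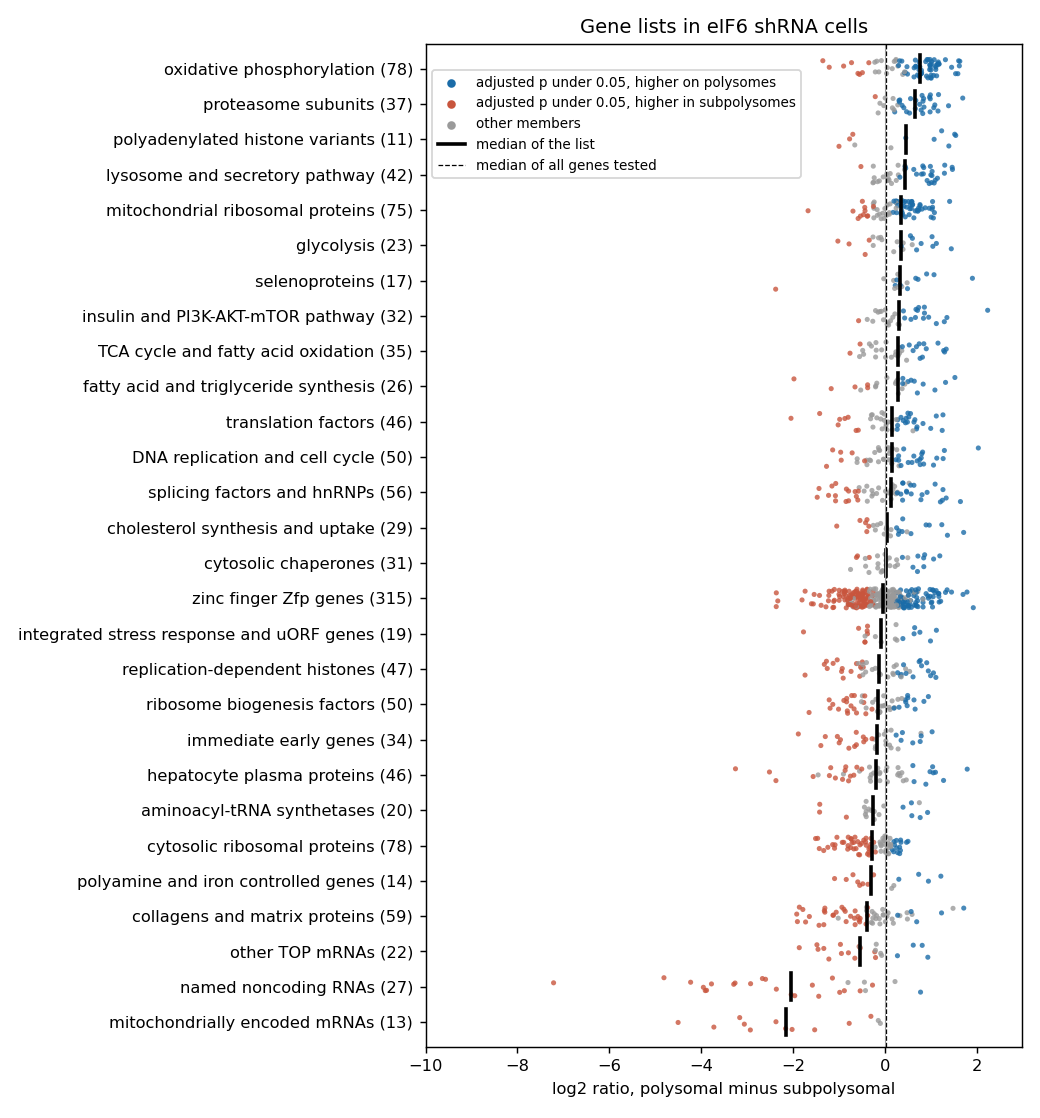
Polysomal ratio on the log2 scale (horizontal axis) of every tested member of each gene list in eIF6 shRNA cells, with the number of members in brackets, the median of the list as a bar and the median of all genes (0.03) as a dashed line. Oxidative phosphorylation (0.76) and proteasome subunits (0.67) have the highest medians, and named noncoding RNAs (-2.04) and mitochondrially encoded mRNAs (-2.16) the lowest.

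Genes of the insulin pathway leaned towards polysomes. Of 32 tested, 15 were called there (46.9%, against 32.1% of all genes) and 1 in subpolysomes (3.1%, against 28.7%). Their median was 0.31. Rheb, the small GTPase that activates mTORC1, Foxo3, Irs1 and Mtor had ratios of 2.24, 1.35, 1.298 and 1.12. Each has 2 probes, of which 1 was well above background on only 0, 1, 1 and 3 subpolysomal arrays in this order, so that the sizes of these ratios rest in part on signal near background. Insr, the insulin receptor, gave 5.53, 5.64, 6.31 and 6.68 on polysomes and 4.97, 4.99, 5.202 and 5.17 in subpolysomes, a ratio of 0.96 (SE 0.22, adjusted p = 0.00164). Its signal was low, and its polysomal arrays spread widely but stayed above the subpolysomal ones. Pik3ca, the catalytic subunit of PI3 kinase, had 0.87. Mlst8, a shared subunit of both mTOR complexes, was called in subpolysomes with 10.696, 10.58, 10.66 and 10.53 against 11.304, 11.02, 11.25 and 11.18 and a ratio of -0.57. The kinases Akt1 and Akt2 were not called (0.075 and -0.027).

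Of 23 glycolytic genes, 9 were called on polysomes (39.1%, against 32.1% of all genes) and 4 in subpolysomes, with a median of 0.36. Within single slides the median ran from -0.14 to 0.91, so that its direction was not the same on every slide, and under constant scaling it was 0.13 relative to all genes. Aldoa, aldolase A, gave 18.199, 18.29, 18.53 and 18.55 on polysomes and 16.86, 16.91, 16.98 and 17.01 in subpolysomes, a ratio of 1.45, and Pgam1, phosphoglycerate mutase, had 1.13. Slc16a1, a lactate transporter, was the lowest at -1.02, and Hk1, hexokinase 1, was called in subpolysomes at -0.43, with probes from -1.24 to 0.13. Of 26 genes of fatty acid and triglyceride synthesis, 10 were called on polysomes (38.5%, against 32.1% of all genes) and 5 in subpolysomes (19.2%, against 28.7%). Their median was 0.29, or 0.15 with normexp. Dgat2, which makes triglycerides, had 11.33, 11.29, 11.14 and 10.86 against 9.98, 10.04, 10.01 and 10.22 and a ratio of 1.09, Elovl6, a fatty acid elongase, had 0.84, and Scd1, a desaturase, had 0.71. Mlxipl, which encodes the glucose-sensing factor ChREBP, was the lowest with 6.45, 6.34, 6.43 and 6.63 against 8.31, 8.49, 8.47 and 8.49 and a ratio of -1.98 (adjusted p = 4.32e-10). Its 2 probes gave -2.06 and -1.89. Fasn, fatty acid synthase, was not called and overlapped between the parts, with 6.695, 6.85, 6.904 and 6.95 on polysomes and 6.86, 7.02, 7.13 and 7.09 in subpolysomes (-0.17, adjusted p = 0.166). Srebf1, a regulator of lipid synthesis, was not called either, with 5.85, 6.35, 6.701 and 7.46 and 7.42, 6.78, 7.06 and 7.19 (-0.52, adjusted p = 0.118). Its polysomal arrays spread widely.

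Of 29 genes of cholesterol synthesis and uptake, 11 were called on polysomes (37.9%, against 32.1% of all genes) and 6 in subpolysomes (20.7%, against 28.7%). Their median was 0.055, or 0.025 without the fourth polysomal array and 0.41 relative to all genes under constant scaling. Ebp, a sterol isomerase, had the highest ratio, with 16.33, 16.17, 15.82 and 16.32 on polysomes against 14.52, 14.31, 14.59 and 14.35 in subpolysomes and 1.72 (adjusted p = 2.94e-08), and Cyp51, a sterol demethylase, followed at 1.37. Mvd, an enzyme of the mevalonate path, was the lowest at -1.04. Of 14 genes of polyamine and iron control, many with known control of translation, 8 were called in subpolysomes (57.1%) and 4 on polysomes (28.6%). Their median was -0.30, but -0.17 with normexp and -0.090 with the brightest probe of each gene. Slc40a1, the iron exporter, had 10.302, 10.704, 10.59 and 10.94 against 11.75, 11.62, 11.71 and 11.83 and a ratio of -1.09, and both ferritin chains, Ftl1 and Fth1, were in subpolysomes at -0.69 and -0.24. Odc1, which makes polyamines, was there too at -0.54, while Oaz1 and Azin1, the antizyme and its inhibitor, were on polysomes at 0.95 and 1.22. The dimmest of the 3 Azin1 probes was well above background on 1 subpolysomal array. Of 17 selenoproteins, with a median of 0.34, 9 were called on polysomes (52.9%) and 1 in subpolysomes (5.88%). That 1 was Sepw1, with 13.88, 14.06, 14.27 and 13.53 against 16.21, 16.31, 16.32 and 16.397 and a ratio of -2.37 (adjusted p = 1.56e-08). Sephs2, which makes the selenium donor, had 9.02, 9.28, 8.68 and 8.73 against 7.31, 6.82, 7.16 and 6.78 and a ratio of 1.91. The glutathione peroxidase Gpx4 had 0.91, and Gpx1 was even at -0.021 and not called, with its sign turned by the removal of the GC trend (0.15) and of 1 array.

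Genes of the integrated stress response and with upstream open reading frames were split. Of 19, 6 were called on polysomes (31.6%, against 32.1% of all genes) and 7 in subpolysomes (36.8%, against 28.7%). Their median of -0.08 turned to 0.23 relative to all genes under constant scaling and to 0.23 with the brightest probe of each gene. Ddit3, which encodes the stress factor CHOP, gave 10.4, 10.09, 10.08 and 9.602 on polysomes and 11.94, 11.88, 11.68 and 11.75 in subpolysomes, a ratio of -1.77 (adjusted p = 7.92e-08). Eif2ak1, a kinase that starts this response, had 1.13, and Ppp1r15b, which reverses it, had 8.58, 8.55, 8.302 and 8.19 against 7.44, 7.34, 7.48 and 7.38 and a ratio of 0.997. Atf4, the transcription factor at its centre, gave 14.73, 14.62, 14.8 and 14.29 on polysomes and 14.91, 15.08, 14.99 and 14.96 in subpolysomes (-0.37, adjusted p = 0.0417), and its 2 probes went opposite ways (-1.05 and 0.301). Cebpb, a factor of fat cell and liver gene control, gave 13.87, 13.77, 14.08 and 14.03 and 14.44, 14.26, 14.23 and 14.32, a ratio of -0.37 (adjusted p = 0.0338). Every polysomal array of Cebpb was below every subpolysomal one. Among 34 immediate early genes, 14 were called in subpolysomes (41.2%, against 28.7% of all genes) and 7 on polysomes (20.6%, against 32.1%). Their median of -0.17 turned to 0.13 relative to all genes under constant scaling. The phosphatase Dusp2 had 10.91, 10.67, 10.96 and 10.42 against 12.598, 12.604, 12.61 and 12.68 and a ratio of -1.88, the factor Klf2 had -1.39, and Egr1 and Jun had -0.46 and -0.47. On polysomes were Atf3 at 1.03 and Maff at 0.79, both leucine zipper factors.

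Histone messages of both kinds were measured. The 47 replication-dependent ones, which end in a stem loop in place of a poly(A) tail, were split, with 14 called on polysomes (29.8%) and 15 in subpolysomes (31.9%), shares near those of all genes, and a median of -0.12, or -0.029 without the fourth polysomal array. Hist1h2bc gave 12.29, 12.09, 12.31 and 11.93 on polysomes and 10.86, 11.15, 10.95 and 11.198 in subpolysomes, a ratio of 1.11, and Hist1h4m had 9.15, 8.65, 9.17 and 8.86 against 10.13, 10.34, 9.84 and 10.77 and -1.31. These genes are near-identical to each other, so that probes can share transcripts. Of 11 polyadenylated variants, 6 were called on polysomes (54.5%, against 32.1% of all genes) and 3 in subpolysomes (27.3%, near the 28.7% of all genes). Their median was 0.46, with H3f3a at 1.55, H2afz at 1.397 and H2afy2, a macroH2A, at -0.996. The probes of H2afj differed in sign (-2.26 and 0.73). Of 50 genes of replication and the cell cycle, 20 were called on polysomes (40%, against 32.1% of all genes) and 6 in subpolysomes (12%, against 28.7%). Their median was 0.15, or 0.088 without the fourth polysomal array. Cdk6, a kinase of the G1 phase, had 7.62, 7.94, 7.46 and 7.95 against 5.78, 5.36, 5.94 and 5.73 and a ratio of 2.04 (adjusted p = 4.27e-08), Ccnd2, its cyclin partner, had 1.27, and Mcm7, of the replicative helicase, had -1.27. Of 56 splicing factors, 19 were called on polysomes (33.9%) and 15 in subpolysomes (26.8%), shares near those of all genes (32.1% and 28.7%). Their median of 0.13 turned to -0.024 without the fourth polysomal array. The small core proteins Snrpd3 and Snrpd2 had ratios of 1.65 and 1.34, while Clk4, a kinase of splicing factors, and Hnrnph1 had -1.43 and -1.22. Of 315 zinc finger genes named Zfp, 34.0% were called in subpolysomes and 23.8% on polysomes (median -0.03), with the 2 genes with a B2 word in their probe lowest and Zfp704 at 1.36 on the polysomal side.

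Secreted proteins of the hepatocyte were spread over a wide range. Of 46 tested, 15 were called in subpolysomes (32.6%, near the 28.7% of all genes) and 9 on polysomes (19.6%, against 32.1%). Their median was -0.20, or -0.082 with normexp and -0.44 relative to all genes under constant scaling. Rbp4, which carries retinol, gave 16.37, 16.36, 16.23 and 16.23 on polysomes and 15.05, 15.02, 15.02 and 14.97 in subpolysomes, a ratio of 1.28 (adjusted p = 2.46e-09), and Cfi, a complement regulator, had 1.11. Ttr, transthyretin, had 9.79, 9.86, 9.64 and 9.495 against 8.73, 8.69, 8.602 and 8.59 and a ratio of 1.04. On the light side were Apoe, apolipoprotein E, with 6.89, 7.07, 6.82 and 6.74 against 9.296, 9.302, 9.21 and 9.19 and a ratio of -2.37, and F10, coagulation factor X, at -2.51. The values of Alb, albumin, did not pass the test (-0.899). Of 13 hepatocyte markers, 3 were called each way (23.1%, against 32.1% of all genes on polysomes and 28.7% in subpolysomes). Their median of 0.28 turned to -0.26 relative to all genes under constant scaling. Of 59 collagens and matrix proteins, 29 were called in subpolysomes (49.2%, against 28.7% of all genes) and 5 on polysomes (8.47%, against 32.1%). Their median was -0.40, or -0.22 with normexp. Col1a1 gave 10.396, 10.27, 10.698 and 11.21 on polysomes and 12.19, 12.52, 12.62 and 12.91 in subpolysomes, a ratio of -1.92, and Col6a1 had -1.901. Both varied widely between polysomal arrays, and their ratios within 1 slide ran from -2.35 to -0.98 and from -2.32 to -0.88. Timp2, an inhibitor of matrix proteases, was the opposite case with 14.71, 14.66, 14.43 and 14.56 against 12.89, 12.81, 12.94 and 12.84 and a ratio of 1.72. The vessel marker Kdr and the macrophage marker Cd68 were in subpolysomes at -1.999 and -1.75, and the biliary keratins Krt7 and Krt19 were at -0.69 and -0.15, the latter not called and turned to 0.20 relative to all genes under constant scaling.

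The same comparison in scramble cells gave 31.7% of genes called on polysomes and 28.4% in subpolysomes, 60.1% together. The ratios of both kinds of cell correlated over the 19364 genes (Pearson's r 0.884, Spearman's rho 0.868), though genes are no independent replicates. Of the genes called on polysomes in eIF6 shRNA cells, 83.4% were also called so in scramble cells, and 84.7% the other way round. For subpolysomes the shares were 83.0% and 83.8%. Of all genes, 60 were called in opposite directions. The difference of the ratios, eIF6 shRNA minus scramble, was called positive for 78 genes (0.403%) and negative for 214 (1.11%), 1.51% together, and 211 of these genes were also called for the ratio in eIF6 shRNA cells. None of the 13 mitochondrially encoded genes and none of the 27 named noncoding RNAs was called for the difference, with scramble medians of -2.63 and -2.29. Of 78 ribosomal protein mRNAs, 2 were called, both lower in eIF6 shRNA cells, Rps6 (-0.74 against -0.26) and Rpl21 (-0.62 against 0.16). The replication-dependent histones had 9 of 47 called higher and 0 lower, with a scramble median of -0.71, and the zinc finger genes had 4 called higher and 0 lower. Collagens and matrix proteins had 5 called lower and 0 higher (Col1a2, Lox, Col6a3, Bgn and Sparc), and 2 fibroblast markers, Col1a2 and Acta2, were called lower, the latter at -0.29 against 1.58. The ratio of Acta2 in eIF6 shRNA cells turned to 0.10 relative to all genes under constant scaling.

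Eif6 itself had a ratio of 0.28 (adjusted p = 0.00633) in eIF6 shRNA cells and 1.35 in scramble cells, a difference of -1.07 (SE 0.11, adjusted p = 0.000145). The values by array given above show that its polysomal signal differed and its subpolysomal signal overlapped. Cebpd, a factor of fat cell development, gave 9.53, 9.21, 9.12 and 8.98 on polysomes and 9.95, 9.96, 9.96 and 9.82 in subpolysomes in eIF6 shRNA cells, all below, and 10.202, 10.23, 10.33 and 9.899 and 10.17, 10.01, 10.07 and 10.15 in scramble cells, where the parts overlapped. Its ratios were -0.71 and 0.062, and the difference was called (adjusted p = 0.027). For Cebpb, Atf4, Srebf1 and Fasn the difference was not called (adjusted p = 0.909, 0.307, 0.978 and 0.914).

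The named genes with the most negative differences had ratios above 0 in scramble cells and below 0 in eIF6 shRNA cells. Dpep1, a dipeptidase of the cell surface, gave 4.54, 4.31, 4.46 and 4.28 on polysomes and 5.85, 5.83, 6.399 and 5.54 in subpolysomes of eIF6 shRNA cells, against 8.704, 8.42, 8.29 and 8.88 and 7.56, 7.51, 7.41 and 7.54 in scramble cells. Its signal was thus lower in both parts, and the ratio was -1.51 against 1.07 (difference -2.57, adjusted p = 6.3e-05). Col1a2, a chain of type I collagen, gave 12.63, 12.87, 12.898 and 13.56 and 14.48, 14.77, 14.93 and 15.21, against 16.41, 16.35, 16.23 and 17.08 and 16.02, 16.096, 16.13 and 16.01, with ratios of -1.86 and 0.45, of which the latter was not called. Ptx3, a secreted pattern recognition protein, and Pdgfrl, a relative of growth factor receptors, had ratios of -0.98 and -0.38 against 1.54 and 2.16. In the opposite direction, Bdh2, a dehydrogenase of ketone bodies and iron carriers, gave 8.8, 8.78, 8.66 and 8.66 on polysomes and 8.07, 8.21, 8.05 and 8.43 in subpolysomes, against 8.43, 8.36, 8.496 and 8.11 and 9.89, 9.87, 9.701 and 9.72 in scramble cells. Its parts did not overlap in either kind of cell and were in the opposite order, with ratios of 0.54 and -1.45 (adjusted p of the difference 1.61e-05). Hist3h2ba had 0.95 against -1.07 and Hist1h2bg -0.61 against -1.63. Pde4c, whose probe holds a B2 word, had -2.71 against -3.91.

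**Figure D5:**
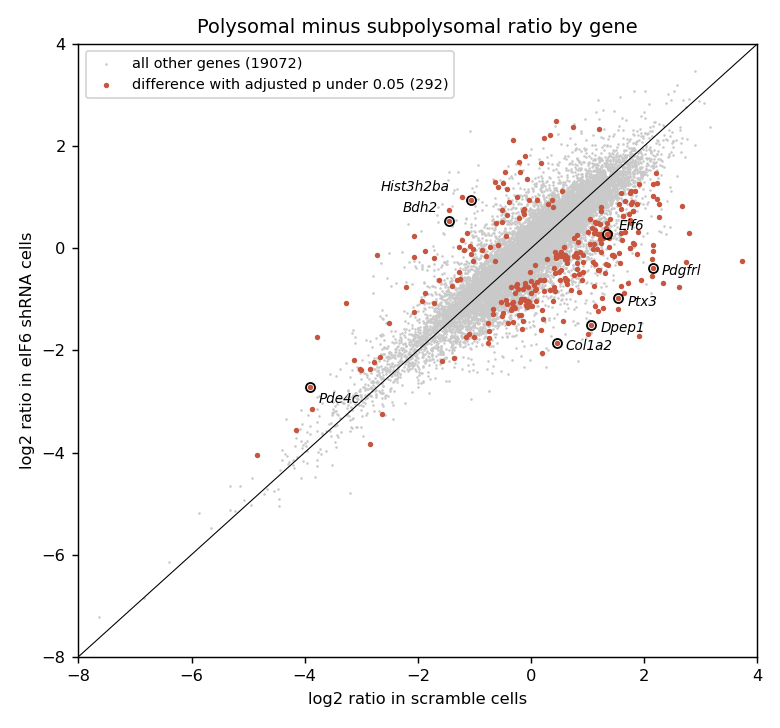
Polysomal ratio of each gene on the log2 scale in eIF6 shRNA cells (vertical axis) against scramble cells (horizontal axis), with a line of equal ratios and, in red, the 292 genes with an adjusted p of the difference under 0.05. Most genes follow the line, and Dpep1 (-1.51 against 1.07) and Bdh2 (0.54 against -1.45) lie far from it on opposite sides.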

How the data were processed

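RNA of polysomal and subpolysomal pools was hybridised by the authors to 1-colour Agilent mouse arrays, 4 per group and 16 in all. The deposited scanner files hold spot intensity (mean signal, local background and a processed signal from which the authors' Agilent Feature Extraction software had subtracted background and spatial trends) and flags from the same software. Its version is 10.7.7.1 in the submitters' processing notes and 10.7.3.1 in the file headers, and probe coordinates are those of mm9. The authors also deposited log2 values, quantile normalized in R, used here as an alternative. No columns of other samples were found (0).

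From the processed signal, control spots and outlier flags were left out, values were put on the log2 scale, and repeated spots were averaged. Probes that fewer than 2 arrays of every group showed well above background were dropped, which left 25259 of 39429. On eIF6 shRNA arrays, 20175 to 24950 probes were well above background and 0 spots were saturated. A gene is the mean of its kept probes. limma 3.58.1 in R 4.3.3 with the data.table package (version 1.17.8) fitted 4 group means, with empirical Bayes and Benjamini-Hochberg adjustment at 0.05, tested on simulated data. Python 3.11.15 and matplotlib 3.10.9 drew the plots. The number of arrays limits the precision.

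Named genes were the 12 leading genes on each side, the 3 largest bounds on each side, the 2 highest and 2 lowest members of each list that were well above background, 7 genes the study turns on, and the 4 largest differences from scramble cells each way. Some genes that this rule selects are not reported here. Further list members were named for their role and are covered by the list counts. The members and the 33 gene lists were chosen with earlier results of these data known. RefSeq names and start sequences are from GRCm38.p6. Deviations of arrays with the same replicate number correlated at -0.04 to 0.03, and those on the same slide at 0.004 to 0.18. With 4 arrays a group this cannot show whether equal numbers came from the same cells, and the main fit used no pairing. Slides held 1 array of each group. Alternatives were other scalings, normexp background, GC trend removal, stricter or no filter, the brightest probe, the authors' log2 values, slide and replicate blocks, arrays left out, only the 8 arrays, and, added after seeing the data, ratios relative to the median of all genes and the removal of probes with repeat words.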

Additional observations from a re-analysis of the deposited data

Results flagged for a closer look

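In 11 of 324 groups of 4 arrays checked over the named genes, 1 array stood apart from the other 3, and chance gives about 1 in 20. On polysomes these were replicate 4 of Ms4a4b at 9.296 and of Ppbp at 7.712, replicate 3 of Gclm at 8.57, replicate 2 of Sesn2 at 11.26, replicate 4 of Hk1 at 11.11 and replicate 3 of Psmb1 at 13.42. In subpolysomes they were replicate 1 of Mlxipl at 8.309, replicate 2 of ND6 at 8.527, replicate 4 of H1f0 at 6.129, replicate 2 of Pecam1 at 5.814 and replicate 4 of Cebpd at 9.823, all as log2 signal.

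For 15 named genes the polysomal ratio differed between eIF6 shRNA and scramble cells (limma, adjusted over all genes). The ratio was lower in eIF6 shRNA cells for Dpep1 (difference -2.575), Pdgfrl (-2.543), Ptx3 (-2.527), Col1a2 (-2.311), Acta2 (-1.867), Eif6 (-1.069), H2afy2 (-0.8657), Psmb1 (-0.8133) and Cebpd (-0.7758). It was higher for Hist3h2ba (2.017), Bdh2 (1.983), Pde4c (1.192), Hist1h2bg (1.014), Zfp658 (0.6524) and Zfp408 (0.4893). The probes of Pde4c, Zfp658 and Zfp408 hold B2 words, and the part of the repeat in these differences was not tested.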

How the results depend on the processing

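The scaling between arrays moved the counts most. Of the ratios in eIF6 shRNA cells, 3987 genes were called higher on polysomes and 8912 lower with 75th percentile scaling, and 11224 and 494 with spike-in scaling, or 931 and 2209 when spike-in ratios were read relative to the median of all genes. In scramble cells the lower calls were 8477 with 75th percentile scaling, and spike-in scaling gave 13412 higher and 396 lower (1073 and 1794 relative to all genes). Calls for the difference between the cells were 408 lower with 75th percentile scaling (335 relative to all genes), 2 higher and 31 lower with spike-in scaling (2 and 14 relative to all genes), 177 higher and 390 lower with normexp and 142 lower without a filter. The cause was not tested. Of the 11778 calls in eIF6 shRNA cells, 80% were made the same way with 75th percentile scaling, 56.3% with spike-in scaling (24.6% relative to all genes), 91.7% with normexp and 90.3% without a filter.

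Leaving out 1 array gave 5859 to 6418 higher and 5155 to 5729 lower calls in eIF6 shRNA cells and, for the difference, 47 (without eIF6 shRNA polysomal replicate 3) to 110 higher and 135 (without scramble polysomal replicate 1) to 214 lower. With the replicate number as a block, although it is not known whether the numbers pair the arrays, 6194 genes were called higher and 5541 lower in eIF6 shRNA cells, 67 and 219 for the difference and 6106 and 5501 in scramble cells.

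Among named genes, the sign turned relative to all genes under scaling by 1 constant for Acta2 (0.10), Hsp90b1 (0.16), Krt19 (0.20), ND6 (0.053), Ppia (-0.35), Psmb1 (0.15), Psmd2 (0.28), Rpl27 (-0.37) and Sox9 (0.24), under the brightest probe for Atf4 (0.30), Cdkn1a (0.18), H2afj (0.73) and Spcs2 (0.71), with the GC trend removed for Gpx1 (0.15) and Krt19 (0.019), and without 1 array of eIF6 shRNA cells for Gpx1 (-0.10 to 0.15), ND6 (-0.23 to 0.069), Psmd2 (-0.37 to 0.0099) and Sox9 (-0.22 to 0.045). Without this centring, 7 of 174 named genes changed sign with 75th percentile and 48 with spike-in scaling. Relative to all genes, 67 of the 174 kept their sign but lost their call with spike-in scaling. With 75th percentile scaling this held for 9. Small ratios near background are limited by the signal over background and by 4 arrays a group.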
